A study of Homo sapiens with 13 samples.

Results

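ATP synthase is the enzyme of the inner mitochondrial membrane that makes ATP from ADP and phosphate as protons flow back into the matrix. Its catalytic head is built from the subunits α, β, γ, δ and ε, a ring of c subunits turns in the membrane, and a peripheral stalk holds the head still. The nuclear genes of these subunits are transcribed by RNA polymerase (Pol) II in nearly every human cell, and their mRNAs, like other mRNAs, end where the pre-mRNA is cleaved and polyadenylated, usually a short distance downstream of an AAUAAA or AUUAAA signal.

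The genes described here are 10 ATP synthase subunit genes, out of 14575 gene names with reads: ATP5A1, ATP5B, ATP5C1, ATP5D and ATP5E of the head, ATP5F1 and ATP5O of the stalk, and ATP5G1, ATP5G2 and ATP5G3, which encode the same mature c subunit. They were chosen by the ATP5A1 total, whose reads differ between the cell lines in these libraries, and listed as the family around it, so the ATP5A1 total, and every other ATP5A1 value from this contrast, is given as a description with no test. All libraries were made from HEK293 Flp-in T-REx cells, a human embryonic kidney line, that carry a pcDNA5 plasmid for α-amanitin resistant Rpb1, the largest subunit of Pol II. Rpb1, which the labels of all these libraries name with an Avitag, was either wild-type (5 libraries) or R749H, a slowly elongating form (4 libraries). In both lines its expression was induced with 2 µg/ml doxycycline, for 24 hr per the labels and for a shorter time per the methods of the study, and 2.5 µg/ml α-amanitin was then given for 42 hr, under which the cells depend on the resistant Rpb1. Poly(A) RNA was sequenced from its 3’ ends by 3’ READS, in which each read marks the 3’ end of 1 mRNA fragment. Each form of Rpb1 comes from 1 labelled line, so the form of Rpb1 and any other difference between the lines cannot be told apart.

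The whole series frames these values as follows. Libraries held 2479851 to 10135014 reads within 5 kb of a stop codon in wild-type and 3863468 to 6475987 in R749H. R749H library 3 stood apart, since only 6.60% of its 3’ ends were seen in 1 read, where the other libraries had between 30.05% and 36.2% of such ends. Levels are given as reads per 1000000 reads (CPM) after scaling by TMM factors, and differences as log2 R749H minus wild-type, fitted for 9494 genes with limma, with Benjamini-Hochberg adjusted p-values and a threshold of 0.05. On this scale 25.1% of tested genes passed the threshold, 11.3% as higher and 13.8% as lower in R749H, and the median difference was −0.061. With the scaling of the authors alone, the median of all genes was −0.39, with 446 genes called higher and 2734 lower. Of 7 markers of HEK293 cells, 6 had reads in wild-type and 5 in R749H, with NEFL at 0 in both and NEFM at 0 in R749H, and their summed level ranged from 493 to 768 CPM and from 603 to 981 CPM. Most of this sum is KRT18, and the others moved both ways: VIM was lower (−0.66, adjusted p = 0.0172) and LIN28B higher (0.64, adjusted p = 0.0224) in R749H in the limma fit, while PAX2, too low for the fit, was at 2.51 ± 1.17 CPM (SD, n = 5) and 0.49 ± 0.43 CPM (SD, n = 4). Of 7 markers of blood, liver and fibroblasts, 3 had any read, PTPRC, HBG1, HBB and COL1A2 were at 0, and the sums reached 0.70 CPM in wild-type and 1.22 CPM in R749H. The part of these markers in the results was not tested. POLR2A, the gene of Rpb1 itself, was higher in R749H by 2.12 ± 0.23 (SE) with an adjusted p of 6.90e-06 in the limma fit. Its reads were counted in the genome, within 5 kb of the POLR2A stop codon. Whether any of them come from the mRNA of the plasmid was not tested.

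ATP5A1 encodes the α subunit, which forms the head together with the catalytic β subunit. Its current symbol is ATP5F1A, and it lies on the minus strand of chromosome 18 (hg19). After repeated listings of an end under the same gene name were merged, its 3’ ends carried 1 CCDS entry, CCDS11927.1. Whether the files list the same ends under further CCDS entries was not counted. The coding sequence ends at position 43664248, and all 10 of its 3’ ends with reads lie between 116 and 3061 nt downstream of that point. Nearly all of the reads fall in 1 cluster, and the stretch of the 3’ UTR that holds it is shown because the difference between the lines changes from one base to the next within it. It covers chr18:43664110-43664139 on the minus strand, from 109 to 138 nt after the stop codon, and is written 5’ to 3’ with capitals for the 4 bases at +131, +132, +134 and +138 where the main 3’ ends lie.
ATP5A1 cluster: tgaaaaataaaggttccataatGCaTagtT
The stretch holds aataaa, the letters of the common poly(A) signal, 13 nt upstream of the end at +132. No base in it was read from the libraries: the sequence is that of the reference genome.

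Summed over all 3’ ends, ATP5A1 had 143, 198, 269, 494 and 195 reads in wild-type libraries 1 to 5 and 8, 9, 3 and 16 reads in R749H libraries 1 to 4. These are 45.7, 41.3, 43.9, 44.98 and 34.1 CPM in wild-type, against 1.39, 2.47, 0.80 and 3.69 CPM in R749H. The groups lie far apart, the wild-type libraries are close to each other, and the R749H libraries, at 3 to 16 reads each, are spread more widely. The means were 42.0 ± 4.72 CPM (SD, n = 5) and 2.09 ± 1.27 CPM (SD, n = 4), a log2 difference of −4.25. Pooled over libraries, the wild-type:R749H ratio was 20.53, with an exact 95% interval of 14.8 to 29.4 that covers counting error only. This interval does not allow for the choice of ATP5A1 on the same total and is no test. Without R749H library 3 the difference was −3.93. In RNA from bulk cultures, fewer cells with the mRNA and less mRNA per cell cannot be told apart. Whether ATP5A1 reads of R749H were lost in mapping, which is taken up below, was not tested.

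**Figure D1:**
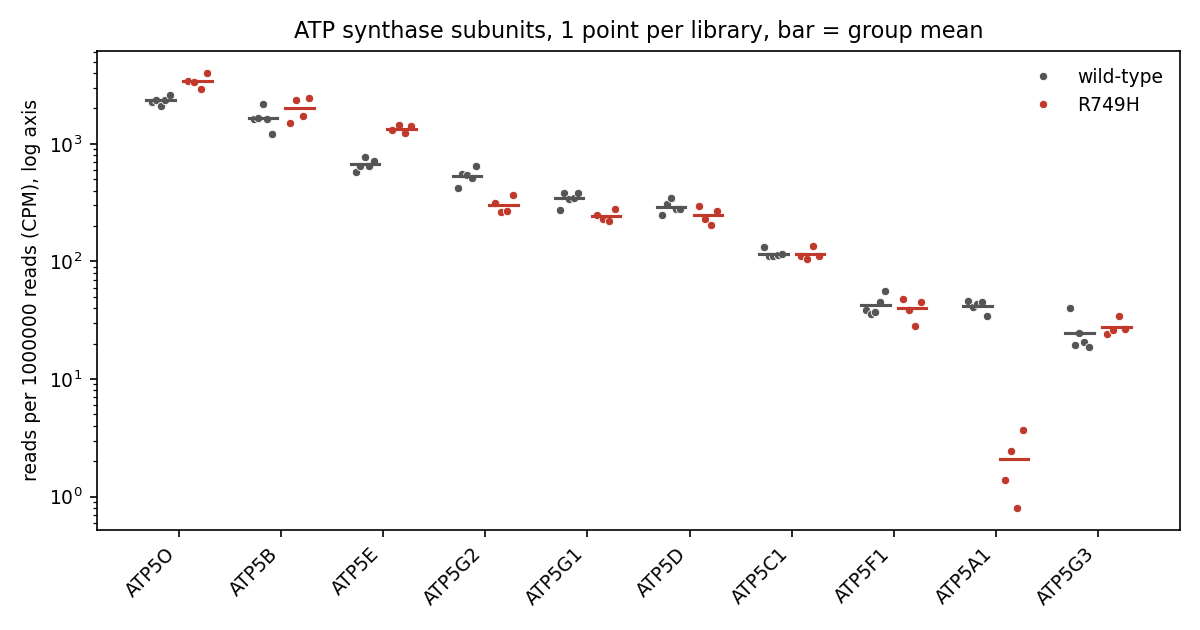
Level of each ATP synthase subunit gene in every library, in CPM on a log axis, with 1 point per library and a bar at the mean of 5 wild-type (grey) and 4 R749H (red) libraries. ATP5A1 sits between 34.1 and 45.7 CPM in wild-type and between 0.80 and 3.69 CPM in R749H, while the mean of no other gene differs by more than 2.01-fold.

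The low ATP5A1 total came from some of its 3’ ends and not from others. At +131, the most upstream of the 4 main ends, there were 4, 12, 9, 13 and 4 reads in wild-type libraries 1 to 5 and 7, 8, 3 and 15 reads in R749H libraries 1 to 4. The level of this end was 1.43 ± 0.67 CPM (SD, n = 5) in wild-type and 1.92 ± 1.18 CPM (SD, n = 4) in R749H, and the groups overlap. The wild-type:R749H ratio at +131 was 0.72, with an exact 95% counting interval of 0.45 to 1.18. A single base further, at +132, the largest wild-type end, there were 100, 121, 185, 330 and 120 reads in wild-type and 0, 1, 0 and 0 in R749H. At +134 there were 34, 56, 65, 130 and 58 reads in wild-type, and at +138 there were 2, 8, 10, 16 and 9, while no R749H library had a read at either end. The change therefore lies between 2 neighbouring bases of the cluster.

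Summed over every end downstream of +131, wild-type libraries held 139, 185, 260, 481 and 191 reads, or 40.5 ± 4.59 CPM (SD, n = 5). R749H libraries held 1, 1, 0 and 0 reads, of which 1 lies at +132 and 1 at +3061. Every wild-type library is far above every R749H library here. The wild-type:R749H ratio was 357, with an exact 95% counting interval of 98.7 to 2954 because R749H has 2 reads in all. The division at +131 was chosen from these values, as the end with the most R749H reads. The intervals at +131 and beyond it do not allow for that choice and are no test.

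The poly(A) profile of ATP5A1, which is the share of its reads at each end, turned over with the totals. The end at +131 held 2.80%, 6.06%, 3.35%, 2.63% and 2.05% of ATP5A1 reads in wild-type libraries 1 to 5. It held 87.5%, 88.9%, 100% and 93.8% in R749H libraries 1 to 4, with lower bounds of the exact 95% intervals of 47.3%, 51.8%, 29.2% and 69.8%. The upper bounds in wild-type were at most 10.3%, and these intervals cover counting error within a library only. R749H library 3, where only 6.60% of all 3’ ends were seen in 1 read, holds 3 ATP5A1 reads, all at +131. Whether ends with 1 read are missing from it, here and in the read numbers above, was not tested. The end at +132 held 65.6 ± 4.09% (SD, n = 5) of wild-type reads and that at +134 held 26.5 ± 2.58%. The total variation distance between the mean profiles of the lines, which is 0% for identical and 100% for disjoint profiles, was 93.3%. Over 7874 genes with a mean of at least 20 reads the median was 9.38% and the 95th percentile 32.3%. ATP5A1 was chosen on this contrast, so its place among them is a description.

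**Figure D2:**
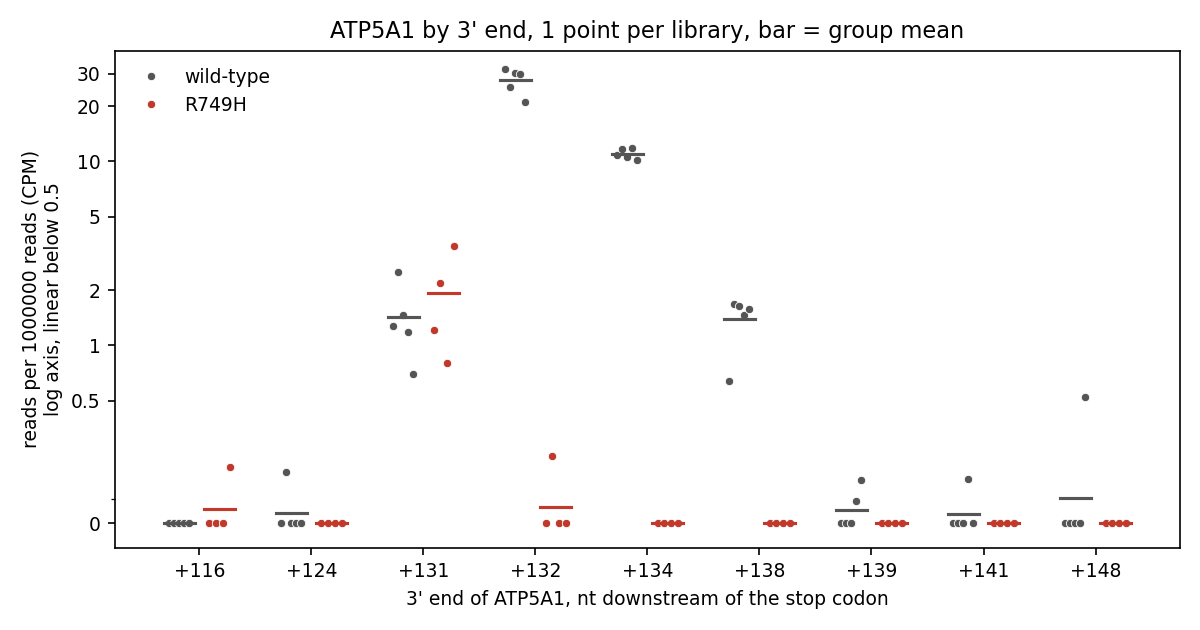
ATP5A1 level in CPM at each 3’ end of the cluster and around it, against its distance from the stop codon, with 1 point per library and a bar at the mean of 5 wild-type (grey) and 4 R749H (red) libraries. The axis is logarithmic and linear below 0.5. The lines overlap at +131, while at +132, +134 and +138 the wild-type means are 27.7, 11.0 and 1.39 CPM and the R749H libraries have 1 read in all.

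Both the mapping and the annotation bear on how these reads were counted. The authors mapped reads with no mismatch allowed in the first 30 nt, which are the bases next to the 3’ end. A base of the transcript that differs from hg19, late in the stretch shown above, would remove every read whose first 30 nt hold it. This does not apply to ends upstream of that base or at least 30 nt downstream of it, as at +3061. In R749H, 1 read lay at +132 and 1 at +3061. Whether the lines differ in sequence in that stretch was not tested, since the files hold positions and read numbers and no read sequences. The annotation names 7 pseudogenes of ATP5A1, 8 each of ATP5F1 and ATP5G1, 5 of ATP5G2, 2 of ATP5E and 1 each of ATP5B, ATP5C1 and ATP5O, and how reads that map to several places were treated is not given in the sources used here.

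After these values were seen, 3’ ends of all genes were searched for the same pattern. Of 11789 ends with a wild-type mean of at least 5 CPM, 6 ends of 4 genes were at least 20-fold lower in R749H. For 4 of them, another end of the gene within 10 nt, at 1 CPM or more in the higher line, kept its level within 2-fold. These 4 ends belong to HSBP1L1 and to ATP5A1 itself, at +132 and +134. ATP5A1 prompted the search and is counted in it, so the counts are a description. In the other direction, 9 of 11810 ends, of 7 genes, were at least 20-fold higher in R749H, with such a neighbouring end for 1 of them, in IFT57.

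Of the other 9 subunit genes, all of which entered the fit, 2 rose in R749H (ATP5E and ATP5O), 2 fell (ATP5G1 and ATP5G2) and 5 did not pass the threshold. Their median difference was −0.013, against −0.061 over all tested genes. The 4 calls among 9 genes stand beside 25.1% called of all tested genes, and the groups of libraries did not overlap for 3 of the 9, where this holds for 19.9% of all tested genes. Each of the 4 log2 differences kept its sign under every alternative run. With the scaling of the authors alone ATP5O missed the threshold and ATP5D passed it as lower, with adjusted p-values of 0.265 and 0.00677, and relative to the median of all genes the differences of the members then moved by less than 0.1.

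ATP5B encodes the β subunit, which holds the catalytic sites and alternates with α in the head. It was at 1625, 1668, 2201, 1624 and 1216 CPM in wild-type libraries 1 to 5 and at 1514, 2347, 1729 and 2468 CPM in R749H libraries 1 to 4. The groups overlap, with R749H libraries 2 and 4 above every wild-type library, and the difference was 0.27 ± 0.20 (SE) with an adjusted p of 0.336 in the limma fit. The reads of the pair that forms the head therefore changed in ratio. ATP5B had 39.6 ± 6.26 (SD, n = 5) times the ATP5A1 level in wild-type and 1219 ± 655 (SD, n = 4) times in R749H, a value that rests on the few ATP5A1 reads of R749H and ranges from 669 to 2165.

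The γ subunit, the central shaft that turns inside the head, is encoded by ATP5C1. Its level was 132, 112, 110, 113 and 116 CPM in wild-type and 112, 105, 136 and 110 CPM in R749H. Both groups hold 1 library above the others and otherwise coincide, and the difference was −0.013 ± 0.16 (SE, adjusted p = 0.965, limma). ATP5D, the δ subunit at the foot of the shaft, was at 248, 306, 345, 279 and 281 CPM in wild-type and at 299, 229, 204 and 267 CPM in R749H. These overlap as well, with a difference of −0.23 ± 0.17 (SE, adjusted p = 0.333, limma).

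ATP5E encodes the ε subunit, the smallest of the head. It was at 571, 651, 773, 643 and 708 CPM in wild-type and at 1300, 1436, 1241 and 1406 CPM in R749H. Every R749H library lies above every wild-type library, and the means, 669 ± 75.6 CPM (SD, n = 5) and 1346 ± 91.0 CPM (SD, n = 4), differ 2.01-fold. The log2 difference of 1.01 ± 0.16 (SE) had an adjusted p of 0.000199 in the limma fit and was called whichever library was left out.

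In the peripheral stalk, ATP5F1 encodes subunit b, its long membrane-anchored helix, and ATP5O encodes OSCP, the cap that joins the stalk to the head. ATP5F1 was at 38.7, 35.7, 36.9, 45.3 and 56.0 CPM in wild-type and at 47.6, 38.6, 28.5 and 45.2 CPM in R749H, with a difference of −0.094 ± 0.21 (SE, adjusted p = 0.777, limma). ATP5O was at 2285, 2358, 2114, 2371 and 2622 CPM in wild-type and at 3408, 3384, 2950 and 4037 CPM in R749H. The ATP5F1 groups overlap, whereas all R749H libraries exceed all wild-type libraries for ATP5O. Its difference was 0.55 ± 0.16 (SE) with an adjusted p of 0.0196 in the limma fit. Without R749H library 2 or 4 the adjusted p rose to 0.0522 and 0.0575.

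The c subunits form the rotating ring that carries protons through the membrane, and 3 genes that differ in their import sequences encode the same mature protein. ATP5G1 was at 276, 381, 342, 349 and 384 CPM in wild-type and at 250, 231, 223 and 279 CPM in R749H. It is lower in R749H apart from the lowest wild-type library, which R749H library 4 exceeds, and the difference of −0.49 ± 0.16 (SE) had an adjusted p of 0.0325 in the limma fit. That call was lost without any one of wild-type libraries 2, 3 or 4 or R749H libraries 2 or 3, with adjusted p-values from 0.0521 to 0.112.

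ATP5G2 was at 424, 550, 547, 514 and 644 CPM in wild-type and at 315, 261, 270 and 368 CPM in R749H. No R749H library reaches the lowest wild-type library, and the difference of −0.82 ± 0.17 (SE) had an adjusted p of 0.0021 in the limma fit and was called whichever library was left out. ATP5G3, the weakest of the 3, was at 40.3, 19.6, 24.5, 20.6 and 18.7 CPM in wild-type and at 24.2, 26.3, 34.1 and 26.5 CPM in R749H. The highest value belongs to wild-type library 1, and the difference was 0.21 ± 0.23 (SE, adjusted p = 0.539, limma).

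Summed over the 3 genes, c subunit reads fell from 907 ± 112 CPM (SD, n = 5) in wild-type to 577 ± 71.6 CPM (SD, n = 4) in R749H, and the groups do not overlap. Their makeup shifted by a few percentage points. ATP5G2 gave 57.3%, 57.8%, 59.9%, 58.1% and 61.5% of these reads in wild-type and 53.5%, 50.3%, 51.3% and 54.6% in R749H. ATP5G1 gave 38.2 ± 1.503% (SD, n = 5) and 42.7 ± 1.34% (SD, n = 4), again without overlap, while the share of ATP5G3, 2.86 ± 1.48% and 4.89 ± 1.16%, overlaps because of wild-type library 1. These shares use the same totals as the fits above and were not tested.

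**Figure D3:**
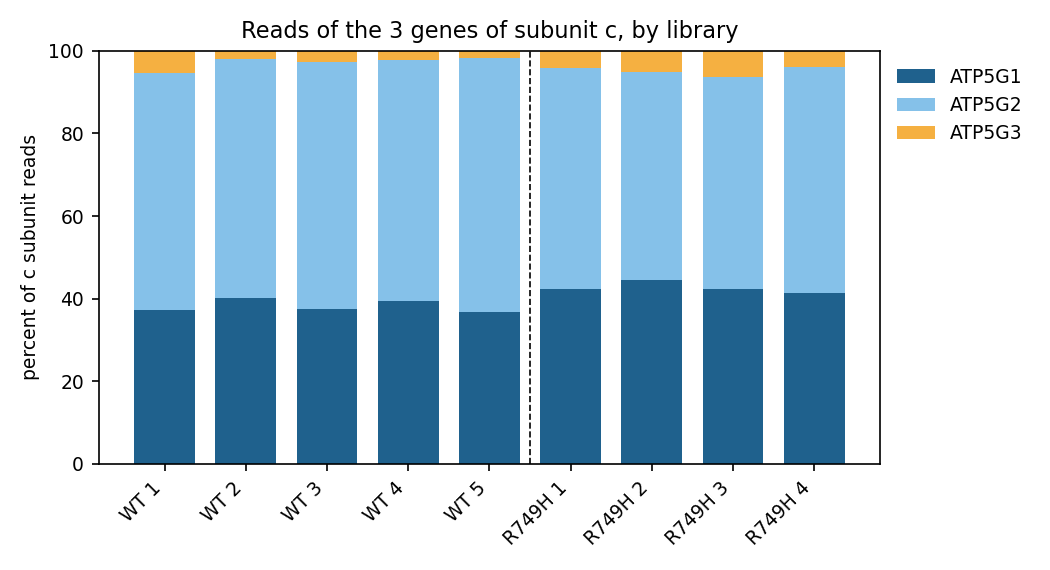
Percent of the summed reads of ATP5G1, ATP5G2 and ATP5G3 that each gene gave, by library, with wild-type libraries (WT) left of the dashed line and R749H libraries right of it. The ATP5G2 share lies between 57.3% and 61.5% in wild-type and between 50.3% and 54.6% in R749H.

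Each of the other 9 subunits had the same largest 3’ end in both lines. For ATP5A1 it was at +132 in wild-type and at +131 in R749H. The total variation distance between the mean profiles was highest for ATP5F1 among those 9, at 10.3%, beside a median of 9.38% over 7874 genes. The last 30 bases before the largest 3’ end are shown for β, the catalytic partner of α, and for the 4 genes that passed the threshold, from the reference genome, 5’ to 3’ on the strand of the gene, with AATAAA or ATTAAA, the letters of the poly(A) signal, in capitals. They lie at chr12:57031963-57031992 (minus) for ATP5B (CCDS8924.1), chr20:57603741-57603770 (minus) for ATP5E (CCDS13476.1), chr21:35275761-35275790 (minus) for ATP5O (CCDS13634.1), chr17:46973201-46973230 (plus) for ATP5G1 (CCDS11539.1) and chr12:54058958-54058987 (minus) for ATP5G2 (CCDS8863.2), in hg19.
ATP5B: ttaaggtttccAATAAAatgtacacccctc
ATP5E: tgtcAATAAAttgaaatatggttcactgtt
ATP5O: tggagcaacAATAAAaagcttccagaacag
ATP5G1: aagctttaccATTAAAcacaacgtttctct
ATP5G2: agagaaaagacaAATAAAtactgtattaat
All 10 largest ends lie in an annotated 3’ UTR, and all 10 stretches hold AATAAA (ATP5A1, ATP5B, ATP5C1, ATP5E, ATP5G2 and ATP5O) or ATTAAA (ATP5D, ATP5F1, ATP5G1 and ATP5G3). Searched in the same way on the strand of the gene, the stretches of the same length before the largest ends of 7874 genes held AATAAA in 65.3%, ATTAAA in 17.9% and either in 81.5%. A match describes the letters of the stretch and not a used site.

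ATP5C1, ATP5D and ATP5G1 each used essentially 1 end, at +135, +387 and +99, which held 97.9%, 97.6% and 99.1% of their wild-type reads and 98.4%, 98.2% and 98.9% of their R749H reads. They could not enter a test of shifts. ATP5B divided its reads between 2 ends that are 2 nt apart, with 68.3 ± 3.35% (SD, n = 5) at +144 in wild-type and 70.6 ± 2.07% (SD, n = 4) in R749H. ATP5O used 4 ends between +67 and +72, with 47.4 ± 0.90% and 47.5 ± 2.02% at +69, and ATP5G2 used 5 ends between +140 and +149, with 29.7 ± 1.35% and 31.7 ± 1.65% at +140. ATP5F1 had 8 major ends, those above 5% of its largest end, in 3 clusters between +333 and +417, with 36.4 ± 8.13% and 35.6 ± 2.47% at +417. These groups overlap at each of the named ends.

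ATP5E and ATP5G3 ended farther out. The largest ATP5E end lies 1620 nt from the stop codon in the genome, a distance that includes an intron of 1461 nt in some annotated transcripts, and held 49.2 ± 10.3% (SD, n = 5) and 54.2 ± 3.43% (SD, n = 4) of its reads. ATP5G3 had a proximal end at +142, with 77.03 ± 6.99% and 76.4 ± 6.41%, and distal ends at +2025, with 10.2 ± 3.85% and 13.8 ± 5.73%, and at +2029, with 9.94 ± 3.89% and 7.58 ± 8.61%. At +2029, R749H libraries 2 and 3 had 1 read and 0 reads, and the groups overlap at each of these ends. Over the 6 subunit genes other than ATP5A1 with at least 2 major ends, the log2 odds of reads downstream of the median position differed by −0.29 to 0.033. None of the 6 passed the threshold in the limma fit over 6978 genes (lowest adjusted p = 0.634), none had an unadjusted p under 0.05, and the edgeR quasi-likelihood test called none. Over all these genes 9 were called, or 0.129%, and 708 had an unadjusted p under 0.05. The value of ATP5A1 in the same fit was −2.44, as a description.

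Because 3’ READS gives 1 read per 3’ end, CPM can be set side by side without division by length, within limits. Reads shared with pseudogenes could not be told apart. Reads whose As the genome could account for were discarded, and the genome has 0 (ATP5F1) to 4 (ATP5C1) As after the largest ends. How far this, or the limit on mismatches, lowered the count of each gene was not tested. In wild-type the order of the mean levels was ATP5O (2350 CPM), ATP5B (1667 CPM), ATP5E (669 CPM), ATP5G2 (536 CPM), ATP5G1 (347 CPM), ATP5D (292 CPM), ATP5C1 (117 CPM), ATP5F1 (42.5 CPM), ATP5A1 (42.0 CPM) and ATP5G3 (24.7 CPM). The ranges of neighbours overlap between ATP5O and ATP5B, ATP5E and ATP5G2, ATP5G1 and ATP5D, ATP5F1 and ATP5A1, and ATP5A1 and ATP5G3. ATP5A1 thus already gave few of the counted reads in wild-type, 0.69% of the sum of the 10 genes, beside ATP5B at 27.4%. In R749H it gave 0.027%, and the summed level of all 10 genes went from 6086 ± 305 CPM (SD, n = 5) to 7790 ± 963 CPM (SD, n = 4), mostly through ATP5O and ATP5E.

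Of 7 further subunit genes, 2 rose and 5 did not pass the threshold, with a median difference of 0.51. Of all tested genes, 11.3% were called higher, and the median difference was −0.061. ATP5H, subunit d of the stalk, differed by 0.62 ± 0.21 (SE, adjusted p = 0.0327) and ATP5J2, the membrane subunit f, by 0.60 ± 0.21 (SE, adjusted p = 0.0473) in the limma fit. ATP5J (0.69, adjusted p = 0.0952), ATP5L (0.51, 0.0556), C14orf2 (0.46, 0.0663), ATP5I (0.38, 0.112) and USMG5 (0.12, 0.615) were above 0 and not called. With the scaling of the authors alone none of the 7 was called or had an unadjusted p under 0.05, and with no filter on low reads none was called and 4 had one. The ATP5H and ATP5J2 calls were each lost without any one of 5 and 7 of the 9 libraries, with adjusted p-values up to 0.0884 and 0.144. In the limma fit of shifts, ATP5L was at −1.08 (unadjusted p = 0.00209, adjusted p = 0.174). C14orf2 was at −0.31 there (unadjusted p = 0.0151, adjusted p = 0.352). ATP5I, ATP5J and ATP5J2 had no unadjusted p under 0.05, and ATP5H and USMG5 were not in that fit.

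Among 5 genes of assembly and regulation, ATPAF2, a chaperone of the α subunit, fell and 4 did not pass the threshold. Lower calls made up 13.8% of all tested genes. ATPAF2 was at 11.8, 15.2, 14.8, 17.2 and 18.2 CPM in wild-type and at 9.74, 7.94, 7.72 and 10.8 CPM in R749H. The groups do not overlap, and the difference was −0.75 ± 0.23 (SE) with an adjusted p of 0.0231 in the limma fit. Without wild-type library 4, R749H library 2 or R749H library 3 the call was lost, with adjusted p-values from 0.0566 to 0.0811. ATPAF1, the chaperone of the β subunit, differed by 0.40 (adjusted p = 0.225), ATPIF1, an inhibitor of the enzyme, by −0.071 (0.800), TMEM70 by 0.038 (0.933) and ATP5S by −0.098 (0.809).

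Of the 4 carriers that bring phosphate and ADP into the matrix and ATP out, SLC25A4 rose and 3 did not pass the threshold. Higher calls made up 11.3% of all tested genes. The SLC25A4 difference was 0.74 ± 0.22 (SE, adjusted p = 0.0182, limma). That call was lost without wild-type library 2 or 4 or R749H library 2, with adjusted p-values up to 0.0727. SLC25A3 was at 0.38 (adjusted p = 0.0944), SLC25A5 at 0.062 (0.883) and SLC25A6 at −0.20 (0.408). With the scaling of the authors alone SLC25A4 was not called and SLC25A6 was called lower (−0.54, adjusted p = 0.00806, limma), and none of the 4 was called with all libraries thinned to the smallest, where 1 had an unadjusted p under 0.05.

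In the respiratory chain, 3 of 9 genes of complex III and 5 of 9 tested genes of complex IV rose and the others did not pass the threshold, with median differences of 0.33 and 0.50. Over all tested genes 11.3% were called higher, and the median difference was −0.061. CYC1, cytochrome c1 of complex III, rose by 0.98 ± 0.25 (SE, adjusted p = 0.00874) and COX7B, of complex IV, by 0.70 ± 0.18 (SE, adjusted p = 0.00917) in the limma fit, and both were called whichever library was left out. The other 6 calls were each lost without any one of 1 to 5 libraries, with adjusted p-values up to 0.109. SDHA and SDHC of complex II and COX6C of complex IV had too few reads for the fit. The 2 tested genes of complex II, SDHB and SDHD, were at −0.28 (adjusted p = 0.416) and 0.27 (adjusted p = 0.668), with no unadjusted p under 0.05 and no call by edgeR or DESeq2. With the scaling of the authors alone, CYC1 was the 1 called gene of complex III (adjusted p = 0.0448, limma), SDHB passed as lower (−0.61, adjusted p = 0.0483, limma), and none of the 9 genes of complex IV was called or had an unadjusted p under 0.05.

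To show what lay around the subunits on their chromosomes, each was set beside the 20 tested genes nearest to it. Over all tested genes, 13.8% were called lower and 11.3% higher, and the median difference was −0.061. The median difference of the neighbours of ATP5A1 was −0.49, with 18 of 20 below 0 and 7 called lower, and the median over 136 other genes of chromosome 18 was −0.45. ATP5A1, at −4.25, is far below this level. Within 1 Mb, HAUS1 differed by −0.46 (adjusted p = 0.179), C18orf25 by 0.23 (0.630), PIAS2 by −0.86 (0.0275) and HDHD2 by −0.80 (0.0198) in the limma fit.

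Around ATP5G1 on chromosome 17, 19 of 20 neighbours were below 0 and 10 were called lower, with a median of −1.02, so ATP5G1 at −0.49 lies above the median of its neighbours. Around ATP5E on chromosome 20 the median was 0.41, with 8 of 20 called higher, and the median of its chromosome was 0.51. ATP5E at 1.01 lies above both. These counts of called neighbours stand beside 13.8% called lower and 11.3% called higher of all tested genes. The neighbours of ATP5G2 had a median of −0.30 and those of ATP5O, on chromosome 21, of 0.022, so the differences of these subunits, −0.82 and 0.55, lie farther from 0 than the medians of their surroundings. For the 5 other subunits the medians of the neighbours lay between −0.22 and 0.27. The part of the surroundings in any of these differences was not tested.

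**Figure D4:**
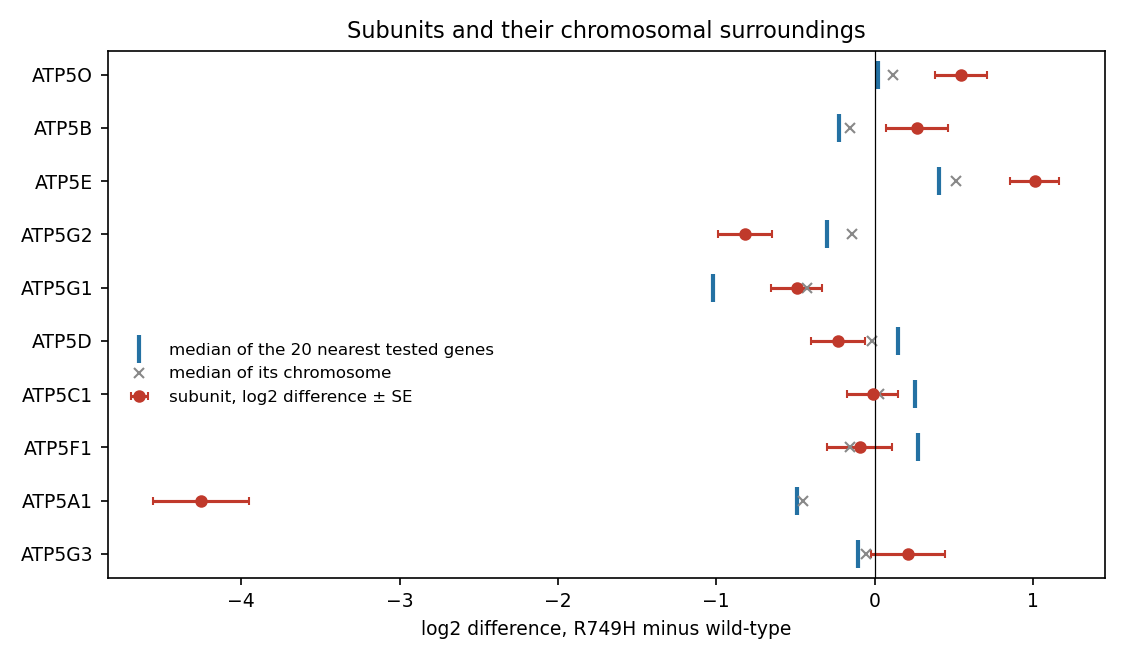
Log2 difference (R749H minus wild-type) of each subunit with its SE (red), beside the median of the 20 nearest tested genes (blue bars) and of all other tested genes of its chromosome (grey crosses). ATP5A1 stands at −4.25 while its neighbours have a median of −0.49, and ATP5G1 at −0.49 lies above neighbours with a median of −1.02.

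The 5 genes whose levels followed ATP5A1 most closely over the 9 libraries were XPO7 (Pearson r = 0.992), NPM2 (0.982), B3GALT6 (0.981), LRRC59 (0.980) and LIG3 (0.980). These libraries form 2 groups, so a high r mostly reflects that a gene is lower in every R749H library. XPO7 went from 94.1 to 105 CPM in wild-type to 37.3 to 62.0 CPM in R749H, a smaller change than that of ATP5A1.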

How the data were processed

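HEK293 libraries of 3’ READS (5 wild-type, 4 R749H) were analysed; 4 mNET-seq libraries were not analysed here. The authors removed 4 random nt and initial Ts, shortened reads to 77 nt or less and used bowtie with hg19, without mismatches in the first 30 nt. Only reads whose As are not in the genome were kept, and each 3’ end was given to the CCDS entry whose stop codon lies within 5 kb before it. The submitters’ processing notes name Bowtie2 2.3.2. The deposited signal values are reads per 3’ end, which the authors scaled to the same total of poly(A) reads in every replicate. Division by the smallest step recovered whole reads for 100% of values (tolerance 0.006). Pooled columns were not used.

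Reads were summed per gene name, filtered with filterByExpr and fitted with limma 3.58.1 (trend, prior count of 2, TMM factors from edgeR 4.0.16, R 4.3.3). The edgeR quasi-likelihood test on the recovered reads called 2358 genes and DESeq2 1.42.0 called 2653. Shifts compare, on a log2 odds scale, reads on either side of the median position of the pooled libraries, with 0.5 reads added and a mean of at least 20 reads, and a variance trend over the mean reads, added after the fit was tested on simulated data. Clusters join ends no more than 4 nt apart. Sequences are from GRCh37, where 15534 of 15557 CCDS entries of the files end in a stop codon, and annotations from GENCODE. Subunit genes, lists and tests were chosen with earlier results of these data known. Named genes are the subunits, the listed related genes (of complexes II to IV, the 2 largest changes), tested genes within 1 Mb of ATP5A1 and the 5 most like it, HSBP1L1 and IFT57 being named after their values were seen. The study calls the replicates biological, without saying more, and p-values measure only the spread between these libraries. Alternatives are in the closing section.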

Additional observations from a re-analysis of the deposited data

Results flagged for a closer look

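Of 30 groups of libraries (each subunit, the c subunit shares and the ATP5A1 ends, in each line), 3 held a library that stands apart from the rest by Dixon’s criterion, which chance meets in about 1 in 20 groups. All 3 are wild-type library 1, the library with the fewest reads. ATP5C1 was at 131.8 CPM there, against 110.2 to 115.8 CPM in the other wild-type libraries. ATP5G3 was at 40.3 CPM, against 18.7 to 24.5 CPM. The ATP5G3 share of c subunit reads was 5.45%, against 1.79% to 2.68%. The ATP5G3 level and share use the same reads, so the groups are not independent and 1 in 20 is only a rough guide.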

How the results depend on the processing

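The ATP5A1 difference stayed between −4.57 and −3.93 under each setting that used all of its ends, and by end, chosen after seeing the data, it was 0.27 at +131 and −6.43 downstream of it. The count of called genes (2380) ranged from 1637 to 2756 without 1 library and that of the other 9 subunits (4) from 2 to 4. Replicate numbers correlated at −0.082 to 0.048 between the lines and pair no libraries. With replicate block 2226 genes and 3 of the 9 subunits were called (ATP5G1 at −0.46, adjusted p = 0.0638), against 2327 and 4 without the block in the same libraries, and the block changed no other call of a subunit.

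Calls of shifts over all genes (9) were 3 to 25 without 1 library, 23 with division at the midpoint and 3 with no minimum of reads, and 8 with the block. Reversed signs occurred in subunits that were not called. With the scaling of the authors alone these were ATP5B at −0.074 and ATP5G3 at −0.13, and ATP5C1 was at 0.0044 in DESeq2. Without 1 library, ATP5C1 ranged from −0.067 to 0.050, ATP5F1 from −0.17 to 0.084, and the shifts of ATP5F1, ATP5G3 and ATP5O from −0.25 to 0.013, from −0.22 to 0.32 and from −0.016 to 0.037. In replicates 1 to 4 of both lines, with or without the block, ATP5F1 was at 0.0049 and the ATP5O shift at −0.013, and with division at the midpoint the ATP5F1 shift was 0.0044. With the 40 nearest genes the median was −0.013 around ATP5D and 0.070 around ATP5F1. The cause of these changes was not tested. ATP5O also missed the threshold with no filter (adjusted p = 0.0992). At 3 to 16 ATP5A1 reads per R749H library, the depth limits the values of single ends.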
